A study of Mus musculus with 2 samples.

Results

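The Krueppel-like factors Klf2, Klf3, Klf4, Klf6, Klf10 and Klf13 were followed in sorted retinal myeloid cells of light-damaged and control mice. These 6 genes were taken by symbol, out of 17 Klf genes and 27998 genes in all in the deposited matrices, and were picked because earlier results of the same libraries drew attention to them. Their levels are therefore given as a description. Krueppel-like factors are transcription factors with a carboxy-terminal zinc finger domain that binds GC-rich and CACCC-type DNA. Klf2 and Klf4 are best known for restraining inflammatory genes in endothelium and myeloid cells, while Klf6 is known to favour them in macrophages. Several genes of the family are induced within minutes of a stimulus and have short-lived transcripts, so that they belong to the immediate-early response, which enzymatic dissociation of tissue can also set off.

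The light-damaged library came from male Cx3cr1-YFP reporter mice on the CB6F1 background, 8 months old, whose retinas were taken after dark adaptation overnight, pupil dilation, 4 h of LED light at 10 klux and 5 days of recovery. The control library came from mice of the same strain, sex, age and reporter that had no light damage; the treatment text of the labels is identical for both libraries, so what else the control mice received is not given in the sources used here. Each group was 1 pool of retinas from 5 to 8 mice, dissociated with collagenase A and DNase I, sorted for live YFP-positive cells and made into 1 library with 10x Genomics 3' end chemistry, which counts each captured transcript by a unique molecular identifier (UMI). The Cx3cr1 reporter marks microglia, the resident macrophages of neural tissue, and other myeloid cells as well. With 1 library a group there was no replicate and no test, and treatment and library cannot be told apart. All intervals are exact 95% intervals that cover counting error only.

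Total depth was 58187149 UMIs over 6821 barcodes in the light-damaged and 20056338 UMIs over 4003 barcodes in the control library, or a median of 7351 and 4846 UMIs per barcode. Filtering kept 6427 light-damaged and 3820 control cells, and 47 barcode sequences occurred in both libraries. Cells were placed in 3 classes by summed marker UMIs per 10000. Microglia had at least 20 of P2ry12, Tmem119, Siglech, Gpr34 and P2ry13 and numbered 4385 light-damaged and 3374 control cells. Perivascular macrophages, which lie along vessels, had at least 10 of Mrc1, F13a1, Cd163, Lyve1 and Cbr2 and numbered 84 and 53 cells. Other macrophages had under 10 of both sums and numbered 1171 light-damaged and 244 control cells. The last class is defined by what its cells lack, and in the control library its label held only in part. Rod photoreceptor markers summed to 348 CPM (UMIs scaled to a common total for each class and library) in the light-damaged and 16218 CPM in the control cells of that class, with none of the 10 markers at 0 in either. Markers of endothelium (73.3 and 583 CPM over 10 genes), pericytes (28.6 and 278 CPM over 6 genes) and bipolar and other neurons (53.6 and 703 CPM over 11 genes) were higher in the control cells as well. Results for this class are thus given for all of its cells and for the 1120 light-damaged and 157 control cells with at least 100 UMIs per 10000 of 12 general macrophage markers, in which rod markers summed to 118 and 584 CPM.

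The proximal promoters of 3 of the members are shown first, because the Klf2 window carries a MEF2 box, the element through which MEF2 factors are known to drive Klf2 in endothelium, and because Klf6 and Klf13, which behaved differently in the cells described here, both carry CCAAT boxes. RefSeq promoter sequences of build GRCm38.p6 were matched for 5 of the 6 members, all but Klf10. Those of Klf2, Klf6 and Klf13 are printed 5′ to 3′ on the strand of the gene. Each stops before the first base of the gene in the GENCODE M21 annotation. That base lies 29 bases ahead of the RefSeq start for Klf2 and 7 for Klf6. Capitals mark the MEF2 box in Klf2, and CCAAT or its reverse complement ATTGG in Klf6 and Klf13.
Klf2 promoter, chr8:72318812-72319032, plus strand: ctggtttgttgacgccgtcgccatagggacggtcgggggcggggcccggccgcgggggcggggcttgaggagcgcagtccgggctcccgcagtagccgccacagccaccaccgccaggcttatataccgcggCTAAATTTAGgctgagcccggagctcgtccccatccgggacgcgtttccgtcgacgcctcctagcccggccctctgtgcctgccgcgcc
Klf6 promoter, chr13:5861239-5861481, plus strand: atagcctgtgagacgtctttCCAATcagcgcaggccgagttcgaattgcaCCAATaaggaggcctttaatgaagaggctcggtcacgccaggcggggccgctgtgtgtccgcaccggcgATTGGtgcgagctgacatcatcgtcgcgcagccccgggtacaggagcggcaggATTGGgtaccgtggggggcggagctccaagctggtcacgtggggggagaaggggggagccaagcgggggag
Klf13 promoter, chr7:63938916-63939165, minus strand: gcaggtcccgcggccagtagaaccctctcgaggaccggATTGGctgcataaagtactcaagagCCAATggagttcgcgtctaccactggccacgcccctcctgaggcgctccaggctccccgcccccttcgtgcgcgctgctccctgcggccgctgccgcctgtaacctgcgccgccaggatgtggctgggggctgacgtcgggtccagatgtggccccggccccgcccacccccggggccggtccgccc

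The MEF2 box of Klf2 began 118 bases before the RefSeq start, and a MEF2 box on either strand occurred in 3.01% of the 27025 promoters of the table, each taken over 250 bases before its start. CCAAT was found 4 times in the Klf6 window and 2 times in the Klf13 window, on both strands together, and in 34.5% of all promoters. GGGCGG, the GC box, was present in all 5 windows, from 1 match in Klf6 to 6 in Klf3, and in 32.9% of all promoters. Matches in the members were counted over all 250 bases before the RefSeq start. For Klf3 the last 133 of these bases lie inside the gene in GENCODE M21. Its match that begins 89 bases before the RefSeq start is among them. A palindromic cyclic AMP response element (TGACGTCA), an AP-1 site (TGANTCA) and a CArG box were searched on both strands, and none was found in these 5 windows. These matches describe letters in a short window and do not show that a factor binds there.

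In microglia, the class with the most cells, Klf2, Klf4 and Klf10 were over 1.5-fold lower in the light-damaged library and no member was higher. A gene counted as lower or higher when its CPM differed by over 1.5-fold and it reached 20 CPM in either library; all 6 members reached that minimum. By this rule 3 of 6 members were lower and 0 were higher, beside 6.70% of 5224 tested genes lower and 5.42% higher. Klf2 had the lowest ratio of the 6 members, and only 0.727% of the tested genes had a lower one. The share with a lower ratio was 1.93% for Klf10 and 4.90% for Klf4, but 12.6% for Klf6, 13% for Klf3 and 32.1% for Klf13. These values chose the members and are not evidence of their own.

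Of the 2 members known for restraining inflammatory genes, Klf2 had 62.4 CPM (59.7 to 65.2) in light-damaged microglia and 196 CPM (190 to 203) in control microglia, a level 3.14-fold lower (2.97 to 3.33). Klf4, which also takes part in monocyte differentiation, had 31.5 CPM (29.6 to 33.5) in light-damaged and 51.5 CPM (48.1 to 55.1) in control microglia, 1.64-fold lower (1.49 to 1.79). Klf10, a repressor first described as an early gene induced by TGF-beta, had 46.9 CPM (44.6 to 49.3) in light-damaged and 108 CPM (103 to 113) in control microglia, 2.29-fold lower (2.14 to 2.46). The counting intervals of the libraries did not overlap for any of these 3 genes. The share of all tested genes with intervals apart was not counted, so this does not set the members apart. Klf6, the member that macrophages induce on activation, had 299 CPM (293 to 305) in light-damaged and 390 CPM (381 to 400.0) in control microglia, a ratio of 0.765 (0.741 to 0.789). Klf3, a repressor that recruits the corepressor CtBP, had 72.7 CPM (69.8 to 75.7) and 94.7 CPM (90.1 to 99.5), a ratio of 0.768 (0.720 to 0.819). Klf6 and Klf3 thus stayed within 1.5-fold although their intervals did not overlap either. Klf13, known as an activator of Ccl5 in T cells, had 27.0 CPM (25.2 to 28.8) in light-damaged and 30.0 CPM (27.4 to 32.8) in control microglia, and the interval of its ratio of 0.900 (0.805 to 1.01) included 1.

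**Figure D1:**
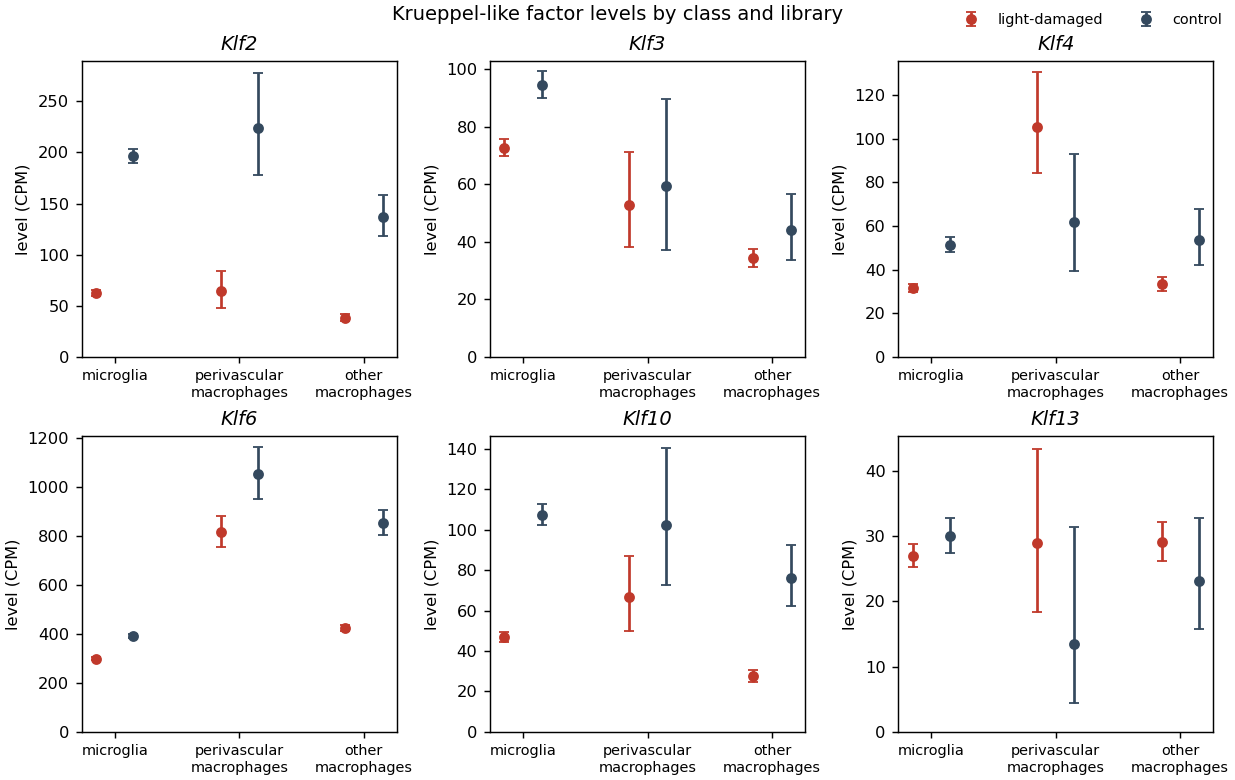
Level of each member in CPM (vertical axis, from 0) in the 3 classes, light-damaged (red, left) and control (dark, right); points are summed UMIs of 1 library and bars are exact 95% counting intervals. Klf2 lay lower in the light-damaged library in all 3 classes, at 62.4, 64.1 and 38.0 CPM against 196, 224 and 137 CPM, whereas Klf4 in perivascular macrophages lay higher, at 106 against 62.0 CPM.

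**Figure D2:**
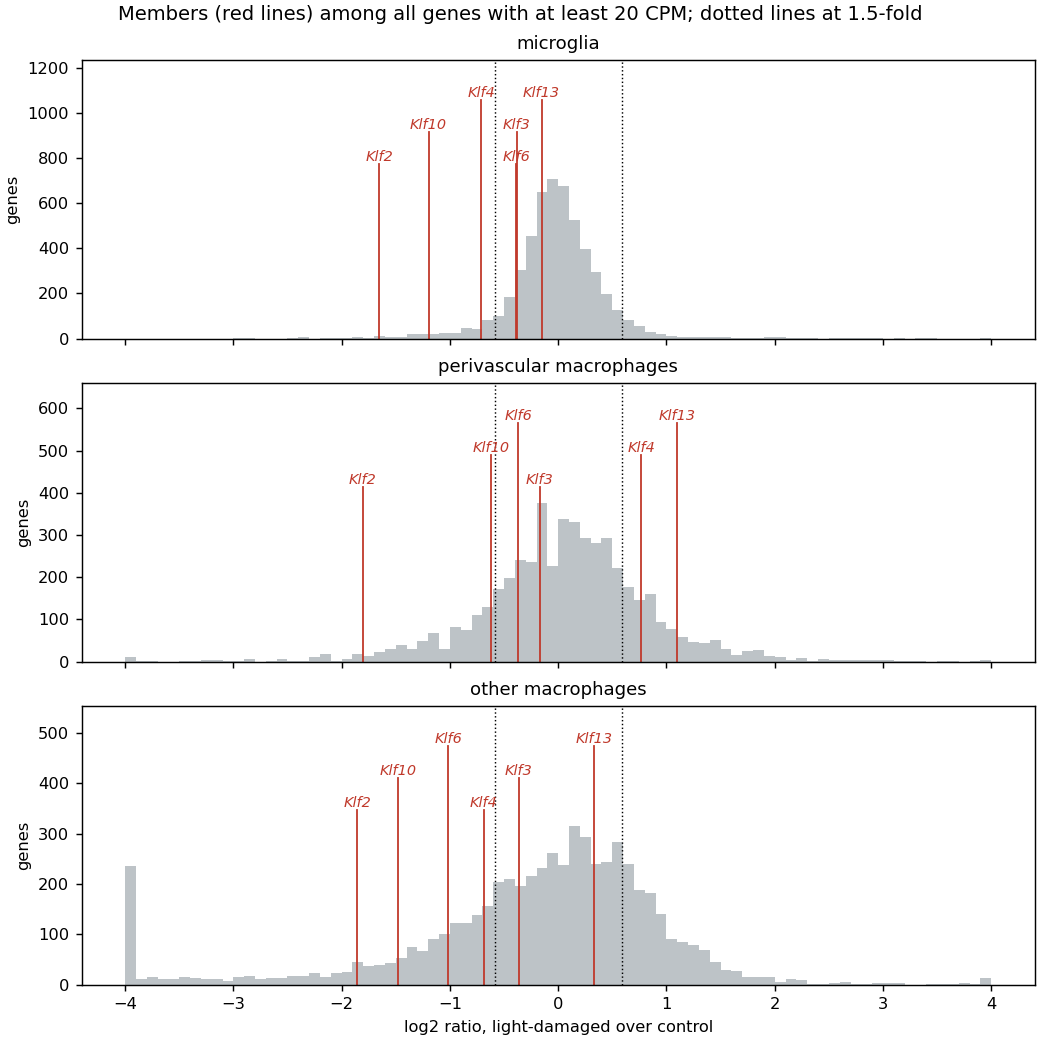
Number of genes (vertical axis) by log2 ratio of light-damaged over control CPM (horizontal axis) for all genes with at least 20 CPM in either library, with the 6 members as red lines and 1.5-fold as dotted lines; ratios past 4 on the log2 scale in either direction are drawn at the edge. In microglia Klf2 at -1.65 and Klf10 at -1.20 lay in the lower tail, and the spread of all genes was wider in the other classes.

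Depth differed between the libraries, and the members moved with it inside each library, so both values are given. When microglia were split at the median depth of their own library, Klf6 had 215 CPM in the deeper and 460.3 CPM in the shallower light-damaged cells, and 317 and 534 CPM in the control cells. Klf2 likewise had 52.3 and 81.9 CPM in deeper and shallower light-damaged cells, and 155 and 277 CPM in control cells. Klf13 had 24.7 and 31.4 CPM in the light-damaged and 28.6 and 32.8 CPM in the control cells. Microglia of 4000 to 7000 UMIs, 1909 light-damaged and 1704 control cells, had medians of 5647 and 5307 UMIs. Among them Klf2 was 2.38-fold lower (2.19 to 2.60) and Klf10 1.77-fold lower (1.60 to 1.96), so both calls held. Klf4 was 1.28-fold lower (1.12 to 1.46), which ended its call. Klf6 had 425 CPM in light-damaged and 399 CPM in control cells, a ratio of 1.06 (1.02 to 1.11), the other direction from that over all microglia. Klf3 and Klf13 had ratios of 0.895 (0.813 to 0.986) and 0.980 (0.832 to 1.16).

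The immediate-early response also differed between the libraries. A list of 19 such genes that holds no Klf gene, among them Fos, Jun and Egr1, summed to 7189 CPM in light-damaged and 12325 CPM in control microglia. A list of 10 heat shock genes summed to 16353 and 24124 CPM. Microglia of both libraries were therefore set in 3 bands by the immediate-early sum of each cell, with the same limits in both, 30.2 and 109 UMIs per 10000, which held 1882 and 705, 1400 and 1186, and 1103 and 1483 light-damaged and control cells from the low to the high band.

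Klf2 and Klf10 were lower in the light-damaged library in every band, while Klf4 and Klf6 stayed within 1.5-fold of their control levels. Klf2 had 21.3, 52.5 and 165 CPM in light-damaged cells of the low, middle and high band, against 39.9, 101 and 365 CPM in control cells, and was 1.87-fold (1.53 to 2.28), 1.93-fold (1.71 to 2.16) and 2.21-fold lower (2.06 to 2.38). Klf10 had 25.2, 42.7 and 99.5 CPM, against 61.8, 89.5 and 148 CPM in control cells, and was 2.46-fold (2.07 to 2.90), 2.09-fold (1.84 to 2.38) and 1.49-fold lower (1.35 to 1.64), the last just short of the 1.5-fold rule. The gap between the libraries was thus widest for Klf10 where the immediate-early sum was low, and widest for Klf2 where it was high; these differences between bands were not tested. Klf4 had ratios of 0.926 (0.695 to 1.25), 0.770 (0.632 to 0.940) and 0.880 (0.783 to 0.989). Klf6 had ratios of 0.974 (0.876 to 1.09), 1.16 (1.08 to 1.24) and 1.14 (1.09 to 1.18). Klf3 stayed below 1, at 0.854, 0.760 and 0.719, and Klf13 at 0.845, 0.976 and 0.890 with intervals that included 1.

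Cells of 4000 to 7000 UMIs were also compared within each band. Light-damaged cells were still somewhat deeper there, with medians of 5756, 5727 and 5450 UMIs from the low to the high band, against 5549, 5381 and 5166 UMIs in control cells. Their mean immediate-early sums were 15.3, 60.5 and 236 per 10000 UMIs, against 18.9, 64.3 and 227. Klf2 was 2.0-fold (1.45 to 2.77), 2.06-fold (1.71 to 2.50) and 1.91-fold lower (1.72 to 2.11) from the low to the high band. Its gap was thus not widest in the high band here, and the intervals of the bands overlapped. Klf10 was 2.02-fold (1.54 to 2.64), 1.88-fold (1.53 to 2.30) and 1.34-fold lower (1.18 to 1.53). Klf6 was higher in the light-damaged cells of the high band, at 941 against 713 CPM in control cells, a ratio of 1.32 (1.25 to 1.39) within the 1.5-fold rule. The part that depth and the immediate-early response play in the pooled ratios of Klf4 and Klf6 was not tested beyond these values.

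**Figure D3:**
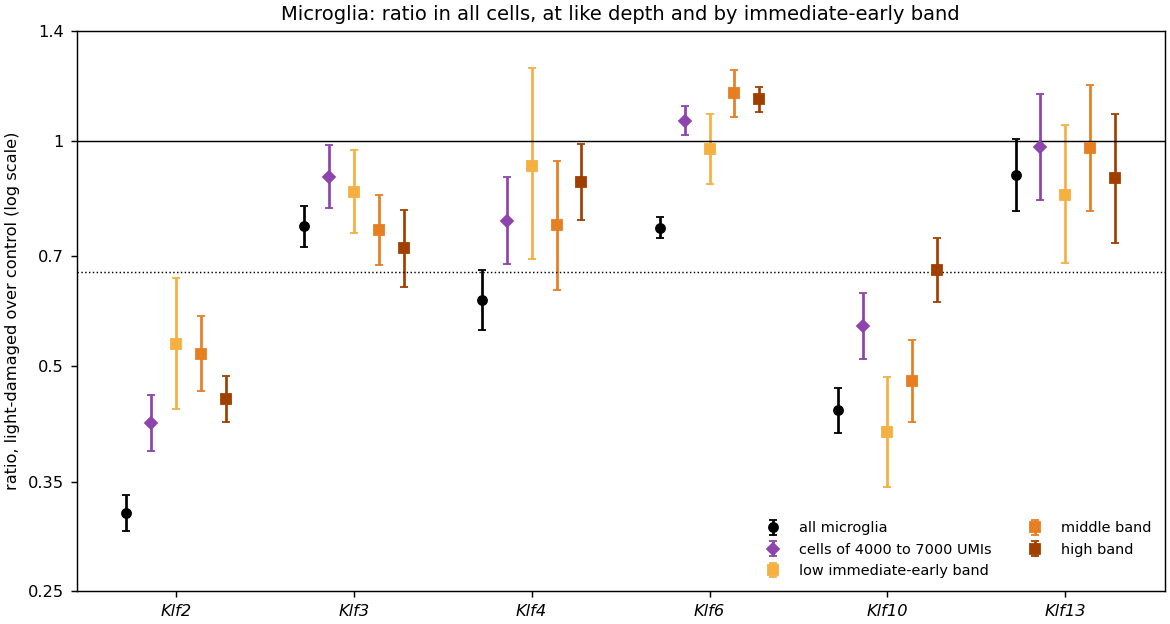
Ratio of light-damaged over control CPM in microglia (vertical axis, log scale) for each member, over all microglia, in cells of 4000 to 7000 UMIs and in 3 bands of the immediate-early sum; bars are exact 95% counting intervals, the solid line is at 1 and the dotted line at 1.5-fold lower. Klf2 lay below the dotted line in all 5 sets of cells, whereas Klf6 went between 0.765 over all microglia and 1.16 in the middle band.

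Microglia markers, which summed to 4168 CPM over the 5 genes of the class rule in light-damaged and 6572 CPM in control microglia, moved with the comparison too. Bands of the microglia marker sum showed Klf2 3.69-fold, 3.22-fold and 3.17-fold lower at 20 to 40, 40 to 60 and 60 or more UMIs per 10000, and Klf10 2.74-fold, 2.40-fold and 2.25-fold lower. Klf4 was 2.43-fold lower in the band of fewest microglia marker UMIs and 1.09-fold lower in that of most. Klf6 followed the same order, with 2.33-fold, 1.53-fold and 1.15-fold. Klf2 and Klf10 were therefore lower at every level of these markers, while the differences in Klf4 and Klf6 were smaller in bands with more of them. Depth was not matched in these bands. Light-damaged cells had medians of 7349, 6728 and 5646 UMIs from the lowest to the highest band, against 4963, 5444 and 4424 UMIs in control cells. The part of depth in this order was not tested.

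Counts per cell showed how the levels were distributed. With every microglial cell thinned to 2700 UMIs, which left out 439 shallower control cells and no light-damaged cell, 14.0% of light-damaged and 30.0% of control microglia had a Klf2 UMI (25.8% and 40.7% unthinned). Cells with 3 or more Klf2 UMIs made up 1.05% of light-damaged and 5.76% of control microglia. Klf10 was seen in 10.5% and 19.0% of the thinned cells (21.6% and 27.0% unthinned). Klf6 was seen in 40.6% of light-damaged and 44.3% of control microglia (65.8% and 58.6% unthinned), with up to 35 and 28 UMIs in a cell. Its range among microglia of 1 library was wide, whereas Klf13, seen in 7.43% and 8.07% of cells (17.7% and 13.3% unthinned), never passed 2 UMIs. Klf3 was seen in 18.3% and 22.4% (39.0% and 34.7% unthinned) and Klf4 in 6.48% and 9.85% (12.8% and 14.0% unthinned). None of the 6 members was seen in 36.6% of light-damaged and 24.0% of control microglia. As a gauge of free RNA, among 42 control cells led by rod genes, with a median of 1863 UMIs, 1 cell had a UMI of Klf2 (2.38%, 0.0603% to 12.6%) and 5 had one of Klf6 (11.9%, 3.98% to 25.6%) unthinned; the light-damaged library had 7 such cells.

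**Figure D4:**
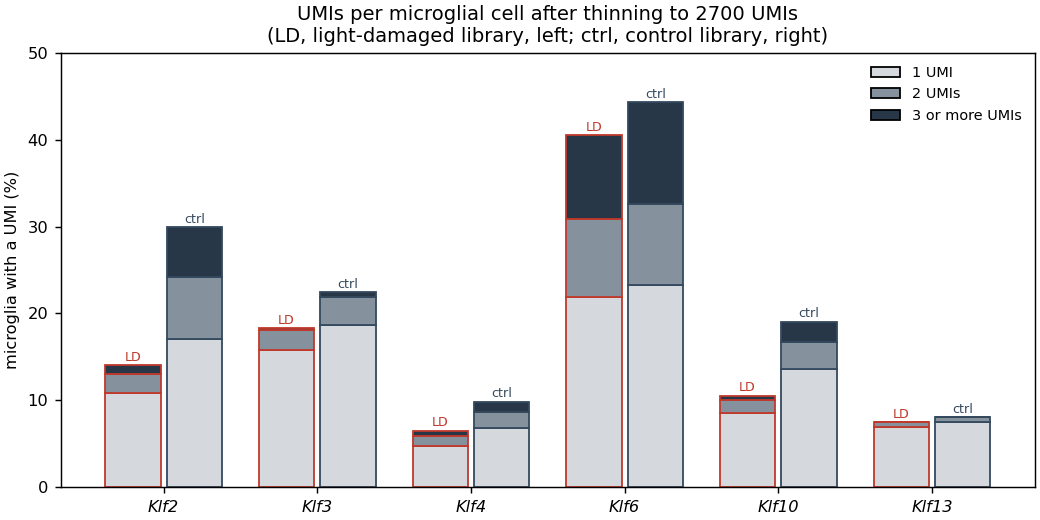
Share of microglia in percent (vertical axis, from 0) with 1, 2 or at least 3 UMIs of each member after thinning to 2700 UMIs per cell, light-damaged (LD) left and control (ctrl) right. Klf2 was seen in 14.0% of light-damaged and 30.0% of control microglia and Klf6 in 40.6% and 44.3%.

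Among microglia of 1 library, Klf2, Klf4 and Klf6 were several times as high in cells with a strong immediate-early response. In the 10% of light-damaged microglia with the highest immediate-early sum, Klf6 had 1333 CPM, against 216 CPM in the remaining light-damaged microglia, 6.16 times as much (5.90 to 6.43). In the control library it had 1622 and 281 CPM, 5.77 times as much (5.48 to 6.08). Klf2 was 4.67 times (4.23 to 5.16) and Klf4 4.15 times (3.59 to 4.79) as high in these cells of the light-damaged library, and 3.77 times (3.48 to 4.08) and 3.73 times (3.18 to 4.36) in the control library. The intervals of Klf3 and Klf13 included 1 in both libraries, at 1.06 times (0.903 to 1.23) and 0.808 times (0.600 to 1.07) in the light-damaged and 1.14 times (0.953 to 1.35) and 1.04 times (0.740 to 1.43) in the control library. With cells thinned to 2700 UMIs, however, Klf13 was lower in the highest 10% of the light-damaged library, at 0.580 times (0.354 to 0.902), and had 0.685 times (0.399 to 1.11) in the control library. Klf10 differed by library. It had 129 CPM in the highest 10% and 40.4 CPM in the remaining light-damaged microglia, 3.18 times as much (2.80 to 3.61), but 142 and 104 CPM in the control library, 1.35 times as much (1.16 to 1.57). Its levels in the 2 libraries thus lay closer in the highest cells than in the remaining ones. Cells with high sums were shallower, with medians of 5042 and 6965 UMIs in the light-damaged and 3752 and 4918 UMIs in the control library; the part of depth was not tested.

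Ranking by the heat shock sum gave Klf6 at 5.36 and 5.48 times, Klf2 at 3.30 and 3.31 times, Klf4 at 2.44 and 4.15 times and Klf10 at 3.06 and 1.48 times in the light-damaged and the control library. Ranking by 8 cytokine genes, among them Ccl3, Ccl4 and Tnf, gave Klf6 4.46 and 3.78 times, Klf4 2.77 and 2.99 times and Klf10 2.89 and 1.75 times. Interferon-stimulated genes ran the other way in the light-damaged library. In the 10% of microglia highest for them Klf4 had 17.3 CPM, against 33.5 CPM in the remaining cells, a ratio of 0.519 (0.400 to 0.663), and Klf6 190 against 314 CPM, a ratio of 0.605 (0.561 to 0.652). The same ratios were 0.928 (0.727 to 1.17) and 0.933 (0.857 to 1.01) in the control library, whose interferon sum over all microglia was 303 CPM, against 2090 CPM in the light-damaged library. The highest light-damaged cells were deeper, at a median of 8154 against 6675 UMIs. Ranking by 10 genes of lesion-associated microglia, such as Spp1, Lpl and Cst7, left all members between 0.751 and 1.02 times in both libraries.

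**Figure D5:**
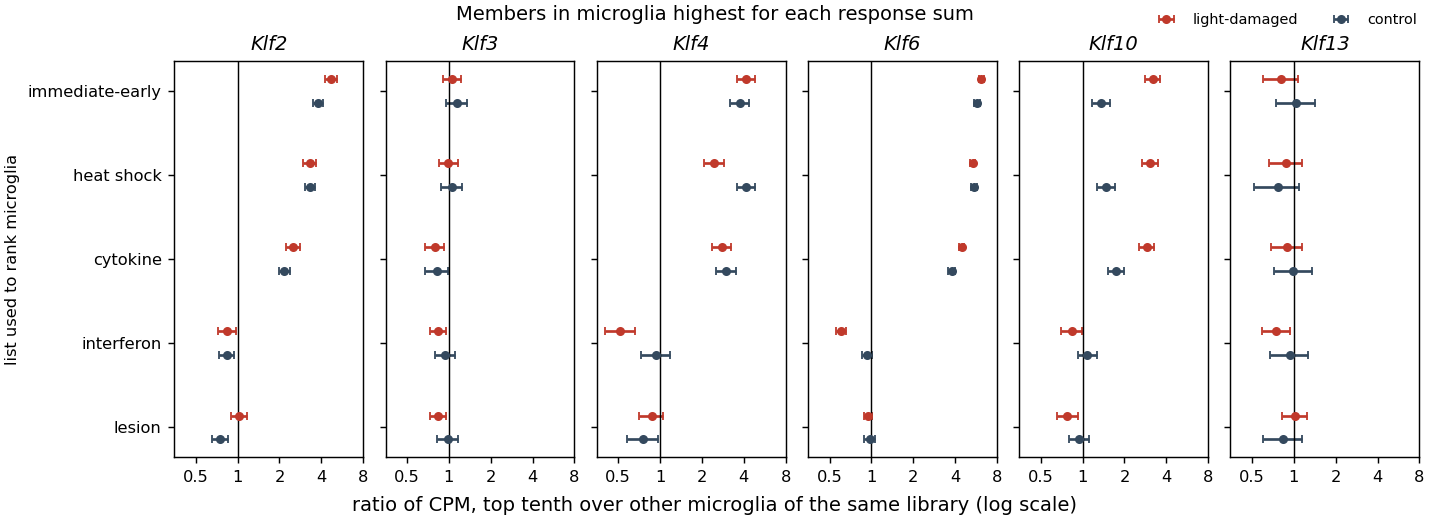
Ratio of CPM in the 10% of microglia with the highest sum of a list over the remaining microglia of the same library (horizontal axis, log scale), by list (rows) and member (panels), light-damaged (red, above) and control (dark, below); bars are exact 95% counting intervals. Klf2, Klf4 and Klf6 lay far right of 1 for the immediate-early list in both libraries, Klf10 at 3.18 in the light-damaged and 1.35 in the control library, and the intervals of Klf3 and Klf13 included 1.

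Detection in the same cell followed these sets. In thinned light-damaged microglia 71 cells had both Klf2 and Klf4, where the separate shares give 39.9, 1.78 times as many; the control library had 140 cells where 86.7 were given, 1.62 times as many. Klf2 with Klf6 was seen 1.50 and 1.31 times, Klf4 with Klf6 1.47 and 1.31 times, and Klf6 with Klf10 1.38 and 1.15 times as often in the light-damaged and control libraries. Klf3 with Klf6 was seen 1.01 and 1.04 times, and Klf13 with Klf6 0.982 and 1.08 times as often as the shares give. Klf3 and Klf13 were therefore spread over microglia with little relation to Klf6.

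In perivascular macrophages, Klf2 was again lower and Klf4 went the other way, on far fewer cells. Here 2 members were lower and 2 higher by the 1.5-fold rule, beside 16.1% of 5020 tested genes lower and 21.1% higher. In simulated counts of this class 15.4% of unchanged genes passed that rule in either direction. Klf2 had 64.1 CPM (51 UMIs) in light-damaged and 224 CPM (83 UMIs) in control cells, 3.49-fold lower (2.43 to 5.05). Klf10 had 66.6 and 102 CPM and was 1.54-fold lower, with an interval of 0.987 to 2.38 that included 1. Klf4 had 106 CPM (84 UMIs) in light-damaged and 62.0 CPM (23 UMIs) in control cells, a ratio of 1.70 (1.06 to 2.83). In cells of 4000 to 7000 UMIs, 20 light-damaged and 18 control cells, its ratio was 1.08 (0.311 to 3.89), which ends that call. Klf13 had 28.9 and 13.5 CPM from 23 and 5 UMIs, a ratio of 2.14 (0.797 to 7.22), which turned to 0.490 under stricter class thresholds. Klf6 had 817 CPM (755 to 882) in light-damaged and 1054 CPM (952 to 1164) in control cells, a ratio of 0.775 that is within the 1.5-fold rule. Other settings made Klf6 a lower call as well: it was 2.35-fold lower (1.73 to 3.22) in cells of 4000 to 7000 UMIs, at 564 and 1325 CPM, and its ratio was 0.635 under stricter class thresholds and 0.612 with cells thinned to 2700 UMIs. Klf3 had 52.8 and 59.3 CPM, a ratio of 0.890. With cells thinned to 2700 UMIs the ratio of Klf3 was 0.490, a lower call. The ratio of Klf10 was 0.916 in that setting, which ends its call. Of the 10 heat shock genes, 10 were lower in light-damaged perivascular macrophages, and their sum was 32082 CPM against 76744 CPM in control cells.

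In other macrophages, Klf2, Klf4, Klf6 and Klf10 were over 1.5-fold lower in the light-damaged library, and no member was over 1.5-fold higher. The count was 4 of 6 lower and 0 higher, beside 28.4% of 5861 tested genes lower and 22.9% higher. In the cells with at least 100 macrophage-marker UMIs it was 5 of 6 lower, beside 18.6% of 4990 genes lower and 33.5% higher. Klf2 had 38.0 CPM (34.7 to 41.5) in light-damaged and 137 CPM (118 to 159) in control cells, 3.62-fold lower, and in the cells with macrophage markers 38.5 and 165 CPM, 4.28-fold lower (3.56 to 5.12). Klf10 had 27.4 and 76.1 CPM, 2.78-fold lower, and with macrophage markers 25.4 and 97.9 CPM, 3.85-fold lower (3.03 to 4.84). Klf2 and Klf10 were thus lower with and without the cells that carry rod, neuronal or vascular markers. Klf6 had 423 and 854 CPM, 2.02-fold lower, and with macrophage markers 402 and 1083 CPM, 2.69-fold lower (2.52 to 2.87). Under stricter class thresholds its ratio was 0.759, and as a mean over cells 0.672, each of which ends its call. Klf4 had 33.4 and 53.7 CPM, 1.61-fold lower (1.23 to 2.07), and with macrophage markers 33.8 and 64.9 CPM, 1.92-fold lower (1.45 to 2.50). Klf3 had 34.2 and 44.0 CPM, a ratio of 0.777, and with macrophage markers 1.51-fold lower (1.10 to 2.02), while Klf13 had 29.1 and 23.1 CPM, a ratio of 1.26 (0.871 to 1.88). In cells of 4000 to 7000 UMIs (252 and 81) Klf2 was 5.28-fold lower (3.67 to 7.65), Klf6 1.68-fold lower (1.51 to 1.86) and Klf10 1.53-fold lower (0.972 to 2.35), and Klf4 was 1.20-fold lower (0.732 to 1.92), which ends its call, as did thinning to 2700 UMIs, with a ratio of 0.865, and keeping cells at or above the lowest light-damaged depth, with 0.706. Rescaling by the median ratio of genes over 50 CPM would shift all log2 ratios of this class by 0.17. In this class 16 of 18 tested immediate-early genes, 10 of 10 heat shock genes and 8 of 8 cytokine genes were lower as well, with immediate-early sums of 6431 and 14598 CPM. Monocyte markers summed to 355 CPM in light-damaged and 88.0 CPM in control cells. The 5 perivascular markers of the class rule, none at 0, summed to 49.8 and 298 CPM, and to 51.7 and 394 CPM in the cells with macrophage markers. Pf4, another perivascular marker, had 49.8 and 598 CPM, and 51.7 and 792 CPM with macrophage markers. The part of these genes in the members' values was not tested.

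Set against microglia of the same library, Klf6 was higher in perivascular macrophages. It was 2.74 times (2.52 to 2.96) as high in them in the light-damaged library and 2.70 times (2.43 to 2.99) in the control library. Klf4 was 3.35 times (2.65 to 4.19) as high in the light-damaged library but 1.20 times (0.759 to 1.82) in the control library. Members higher by the 1.5-fold rule numbered 2 in the light-damaged library, beside 15.7% of tested genes, and 1 in the control library, beside 16.7%. Members lower by it numbered 0 in the light-damaged library, beside 31.0%, and 2 in the control library, Klf3 and Klf13, beside 39.2%. Klf3 was lower in other macrophages than in microglia, 2.13-fold (1.92 to 2.36) in the light-damaged and 2.15-fold (1.66 to 2.84) in the control library, where 17.7% and 25.9% of tested genes were lower. In the cells with macrophage markers it was 2.15-fold and 1.86-fold lower, beside 20.1% and 41.6%. Klf6 was 1.42 times (1.37 to 1.47) as high in other macrophages as in microglia of the light-damaged library, where 0 members were higher by the rule beside 13.5% of genes, and 2.19 times (2.05 to 2.33) in the control library, where it was the 1 member higher beside 25.0%. With macrophage markers these values were 1.35 times, with 12.2% of genes higher, and 2.77 times, with 15.2% higher. Klf2 and Klf10 were 1.64-fold (1.49 to 1.82) and 1.71-fold lower (1.52 to 1.93) in other macrophages than in microglia of the light-damaged library, and 1.43-fold and 1.41-fold lower in the control library. In the cells with macrophage markers they were 1.62-fold and 1.84-fold lower in the light-damaged library. In such cells of the control library Klf2 was 1.19-fold lower. Klf10 was 1.099-fold lower there, with an interval of 0.896 to 1.36 that included 1. Klf2 therefore ran highest in perivascular macrophages and microglia, whose intervals overlapped in both libraries, and lowest in other macrophages, although control cells of that class with macrophage markers, at 165 CPM (141 to 192), overlapped both. Klf3 ran highest in microglia in both libraries, with an interval that overlapped that of perivascular macrophages in the light-damaged library. Klf13 was flat in the light-damaged library, at 27.0 to 29.1 CPM over the 3 classes, with intervals that overlapped. In the control library it had 30.0 CPM (27.4 to 32.8) in microglia and 23.1 CPM (15.7 to 32.8) in other macrophages. In control perivascular macrophages it had 13.5 CPM (4.38 to 31.5) from 5 UMIs. These control intervals overlapped as well.

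The rest of the family was mostly low in these cells. Of 20 other Klf and Sp genes, 2 reached 20 CPM in microglia, and neither passed the 1.5-fold rule. Klf7 had 60.1 and 58.0 CPM in light-damaged and control microglia, and Sp3, a related GC-box factor, had 31.4 and 34.6 CPM. Klf9, a glucocorticoid-induced member, had 2.67 CPM in light-damaged and 29.8 CPM in control other macrophages, the class whose control cells carried rod and vascular markers, and under 20 CPM in the other classes. Among genes known to act upstream of Klf2 and Klf4, 5 of 10 were tested in microglia and 0 passed the rule in either direction. Their median log2 ratio was 0.20, beside -0.02 over all tested genes. The MEF2 factors Mef2c and Mef2a had 481 and 365 CPM in light-damaged and 616 and 428 CPM in control microglia. Mef2d, also a MEF2 factor, went the other way, with 21.2 and 17.2 CPM, a ratio of 1.24 (1.08 to 1.42). Creb1 and Hdac5 had ratios of 1.23 and 1.15.

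Of 20 genes reported as regulated by Krueppel-like factors in other cells, 8 were tested in microglia, 2 were higher and 2 lower, with a median log2 ratio of 0.21 beside -0.02 over all tested genes. The chemokine Ccl5 had 193 CPM in light-damaged and 38.6 CPM in control microglia, 4.99 times as much (4.60 to 5.42), and the cell cycle inhibitor Cdkn1a 117 and 40.7 CPM, 2.88 times as much (2.65 to 3.13). Smad7, an inhibitor of TGF-beta signalling, was 2.47-fold lower. The list thus moved in both directions. Of 11 tested cofactors, Ctbp1, the corepressor of Klf3, was 1.92-fold lower (24.9 CPM in light-damaged and 47.7 CPM in control microglia). Of 8 tested genes of the TGF-beta pathway, the one that induces Klf10, Smad7 was the only one past the rule.

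Among 16 tested immediate-early genes in microglia, 5 were lower and 0 higher, with a median log2 ratio of -0.41. Ier5 was 7.01-fold lower (150 and 1049 CPM), Jund 2.50-fold lower (37.2 and 93.1 CPM) and Jun 2.29-fold lower (1801 and 4123 CPM), while Fosb had 39.0 and 28.0 CPM, a ratio of 1.39. Of 14 tested myeloid transcription factors, Cebpa was 5.05-fold lower (42.2 and 213 CPM), and Spi1, a factor that specifies myeloid cells, had 449.6 and 430.1 CPM. Light-damaged microglia also differed in overall makeup: Malat1, a nuclear RNA, held 1.09% of UMIs against 2.69% in control microglia, mitochondrial genes 2.73% against 1.67%, ribosomal protein genes 20.7% against 16.3% and the secreted inhibitor Cst3 3.01% against 7.49%. The 10 rod markers, none at 0, summed to 122 CPM in light-damaged and 576 CPM in control microglia. Their part in the members' values was not tested.

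The genes most like each member were sought over 6 points, the 3 classes in the 2 libraries, by Pearson correlation of log2(CPM + 10) among 1331 genes that varied; points of 1 library share that library, and the correlations are descriptions. Klf2 was most like Exosc2 (r = 0.988), Zfp36l2 (r = 0.986) and Ier5 (r = 0.974), and Klf10 like Exosc2 (r = 0.974), Jun (r = 0.962) and Junb (r = 0.953). Klf6 was most like Atf3 (r = 0.996), Pf4 (r = 0.994) and Spag9 (r = 0.992), of which Pf4 had 684 and 1933 CPM in light-damaged and control perivascular macrophages and 3.23 and 14.1 CPM in microglia. Klf4 was most like Egr2 (r = 0.966), Gas6 (r = 0.917) and Pomk (r = 0.903). Klf3 was like Etv5 (r = 0.991) and RP23-81F19.2 (r = 0.984), and Klf13 like Nupr1 (r = 0.967), Cnpy2 (r = 0.963) and Socs3 (r = 0.963). Klf13 itself varied little, with an SD of 0.293 on the log2 scale. Its lowest point, control perivascular macrophages, rests on 5 UMIs. Nupr1, Cnpy2 and Socs3 were also lowest at that point, with 27.0, 21.6 and 62.0 CPM.

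Reads of a few members may be shared with other genes. Klf3 (chr5:64803388-64832901, plus strand, mm10 coordinates from GENCODE M21) is overlapped by C230096K16Rik on the same and by Gm20033 on the other strand, and Klf13 (chr7:63886351-63938915, minus strand) by E030018B13Rik and Gm27252 on the other strand. No other member had an overlapping gene. In the last 400 bases of the transcripts 3.13% of the 50-base words of Klf13 also occurred in Tanc2, and none of those of the other members occurred elsewhere. No member's annotated 3′ UTR held TTATTTATT, an element of unstable transcripts that was present in 7.59% of 21153 genes.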

How the data were processed

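Single-cell RNA sequencing measured 2 libraries, 1 for each group. The authors deposited, for each, a matrix of whole-number UMI counts per gene and barcode, not normalized; Cell Ranger 2.0.0 and mm10 are named per the submitters' processing notes, and any further step is not given in the sources used here. A barcode passed with 300 or more genes and no more than 10% of UMIs from mitochondrial genes. Scrublet in scanpy 1.11.5 marked 1 light-damaged and 0 control barcodes by its own threshold, so those with the highest scores were removed, 0.8% per 1000 barcodes (372 and 128). Of the kept cells, 785 light-damaged and 144 control cells met no class rule and 2 and 5 met both; these were left out. UMIs were summed by class and library in Python 3.11.15 and scaled to CPM. Intervals are exact Poisson for levels and ratios and exact Clopper-Pearson for shares, at 95%, from scipy 1.17.1.

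The members and all lists were chosen with earlier results of these data known. Named genes were the members, the 3 highest and 3 lowest genes of each list in microglia among those with at least 20 CPM, of which those that bear on the members are printed and a few genes are not reported here, every other Klf or Sp gene with 20 CPM in any class, and the 3 genes most like each member (at least 50 CPM in 1 point and an SD of at least 0.5 over the points). Alternatives were doublet removal, cell filters, depth, class thresholds, scaling, averaging over cells, thinning to 2700 UMIs, the fold and the CPM minimum. The cells with 100 macrophage-marker UMIs, the microglia marker bands and the cells of 4000 to 7000 UMIs, also within immediate-early bands, were chosen after seeing the data. The ratio calculation was tested on simulated data. Genes set to differ by 2-fold were called in 99% of cases in microglia, 85.5% in perivascular macrophages and 97.5% in other macrophages. Unchanged genes were called in 0%, 15.4% and 0.954% of cases in the same order.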

Additional observations from a re-analysis of the deposited data

Results flagged for a closer look

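Klf4 differed from light-damaged to control cells in opposite directions by class: its ratio of light-damaged over control CPM was 1.70 in perivascular macrophages, 0.611 in microglia and 0.622 in other macrophages. The difference between classes was not tested. The first value rests on 84 light-damaged and 23 control UMIs of 84 and 53 cells, and in cells of 4000 to 7000 UMIs it was 1.08 (0.311 to 3.89). In such cells the ratio was 0.782 (0.684 to 0.893) in microglia and 0.832 (0.520 to 1.37) in other macrophages. No class passed the 1.5-fold rule for Klf4 there.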

How the results depend on the processing

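No paired analysis was possible because each group had 1 library, and no library could be left out. In microglia the ratio of Klf2 lay between 0.309 and 0.419, that of Klf10 between 0.415 and 0.565 and that of Klf4 between 0.602 and 0.782 over 11 alternatives, and Klf6 between 0.757 and 1.06. Depth was the setting that moved these 4 genes farthest, and cells of 4000 to 7000 UMIs gave the upper value of each. In perivascular macrophages the count of 2 lower members became 1 with cells meeting both rules in both classes, with a mean over cells and with a fold of 2, and 3 under stricter class thresholds, with thinned cells and with cells of 4000 to 7000 UMIs. The count of 2 higher members became 1 under stricter and looser class thresholds, a fold of 2, a minimum of 50 CPM and cells of 4000 to 7000 UMIs. The ratio of Klf13 there, 2.14, reversed to 0.490 under stricter class thresholds. In other macrophages Klf6 lay between 0.372 and 0.759 and Klf10 between 0.260 and 0.655 over 13 alternatives. Genes past the rule in microglia numbered 633, with 229 at a fold of 2, 336 at a minimum of 50 CPM and 6706 with no minimum. For cells ranked by a response sum, 85 of 120 alternatives left the ratio inside its interval and 35 moved it outside. Reversal was counted only for ratios past 1.5-fold, and 0 of these reversed. Ratios nearer 1 could still cross it, as that of Klf13 by the immediate-early sum did in the control library with thinned cells. The causes were not tested. Depth limits perivascular macrophages most, where Klf13 rests on 23 and 5 UMIs.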
